A study of Mus musculus with 43 samples.

Results

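Antigen presentation genes of the mouse were followed along the proximal tubule of the female kidney. The set held 55 of the 54532 genes in the table. It comprised 41 genes whose symbol starts with H2- and a capital letter, that is the histocompatibility complex, after 4 symbols marked as pseudogenes (-ps) were left out. The other 14 were B2m, Tap1, Tap2, Tapbp, Nlrc5, Ciita, Cd74, Psmb8, Psmb9, Psmb10, Irf1, C1qa, C1qb and C1qc. Of the 55 genes 46 lie on chromosome 17. The rule goes by symbol and sets no limit on a measured value, and it was written with earlier results of these data known.

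The proximal tubule, which takes back most of what the glomerulus filters, was sampled in its successive segments S1, S2 and S3. All RNA-seq libraries came from female C57BL/6 mice aged 6 to 8 weeks, with 2 to 5 tubules to a library, and the labels name no treatment or altered gene. C57BL/6 mice share 1 histocompatibility haplotype, so every segment carries the same H2 alleles. S1 had 6 libraries (numbers 4 and 5 in the titles), S2 had 6 (numbers 1, 2 and 3) and S3 had 7 (numbers 2, 3, 4 and 5). The labels do not say what that number stands for. If it is the animal, S1 and S2 shared none.

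The authors deposited 1 value per gene and segment in TPM, a share of all transcripts that is scaled for transcript length so that genes can be compared and summed. No value per library was used here, so there is no spread, no n behind a value and no test. Each difference describes these 3 columns alone, and the depth is unknown. Defining markers of the labelled cell type were present. Lrp2, the endocytic receptor megalin, was at 143, 228 and 259 TPM from S1 to S3. Slc5a2, the S1 glucose transporter, was at 2808 TPM in S1, 1.3 TPM in S2 and 0.5 TPM in S3. Slc7a12, an amino acid transporter, was at 2.5, 1613 and 3048 TPM.

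Class I molecules present peptides made inside the cell and are found on nearly all nucleated cells. A heavy chain pairs with B2m and takes peptides that the proteasome cuts and the transporter Tap1/Tap2 carries into the endoplasmic reticulum. Class II molecules present peptides from endocytosed material and are made chiefly by macrophages, dendritic cells and B cells. Epithelial cells, the proximal tubule among them, can make class II under interferon gamma. C1q, the recognition protein of the classical complement pathway, is made mainly by tissue macrophages.

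The class II chains and the C1q chains stood highest in S2, the classical class I heavy chains differed less than 2-fold between segments, and a group of nonclassical class I genes was highest in S3. In such tissue pieces fewer cells of a type and less RNA per cell cannot be told apart. Of the 55 genes 34 reached 1 TPM in at least 1 segment and were compared on the log2(TPM + 1) scale. A difference of at least 1 on it is called 2-fold here. Of these 34, 26 reached 1 TPM in every segment, 2 in S2 and S3 and 6 in a single segment. H2-Q4, H2-Q5, Ciita and Nlrc5 reached it in S2 alone, and H2-Q2 and H2-DMb2 in S1 alone. Such genes had to differ between segments to be compared at all. H2-DMb2 (1.1 TPM at most) and H2-Q2 (1.4) lay just inside the limit, and H2-Q10 and H2-Ob (0.6 each) just outside.

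S1 exceeded S2 by 2-fold or more for 2 of the 34 genes (H2-DMb1 and H2-Q2), beside 6.62% of all 16053 genes compared, and was lower for 19 (55.9%), beside 17.7%. Between S1 and S3 the counts were 3 higher in S1, beside 10.5% of all genes, and 5 lower, beside 13.1%. Between S2 and S3, 14 (41.2%) were higher in S2, beside 8.74%, and none was lower, beside 2.24%. At least 2-fold above both other segments were 2 genes in S1, 12 (35.3%) in S2 and none in S3. The shares of all genes were 6.03%, 5.22% and 2.00%. The highest value was in S1 for 5 genes, in S2 for 25 and in S3 for 4. Over all genes those shares were 35.4%, 36.4% and 26.4%. The median difference of the 34 genes was -1.42 (S1 minus S2), -0.30 (S1 minus S3) and 0.79 (S2 minus S3), beside -0.18, -0.01 and 0.12 over all genes.

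The balance of calls over all genes depended on the scaling. Of all genes that differed 2-fold between S1 and S2, 27.2% were higher in S1 on the deposited scale, 44.3% after quantile normalization and 69.3% after median-of-ratios scaling over genes above 0 in each segment. For S2 and S3 the shares higher in S2 were 79.6%, 63.1% and 43.0%. The median-of-ratios scaling moved the median of all genes to 0.48 for S1 minus S2 and to -0.34 for S2 minus S3. Under it S1 was above S2 for 2 of the 34 genes and below it for 16, and S2 was above S3 for 7 and below it for 3. The same scaling over genes of at least 1 TPM in each segment gave 2 and 19, then 14 and 0.

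**Figure D1:**
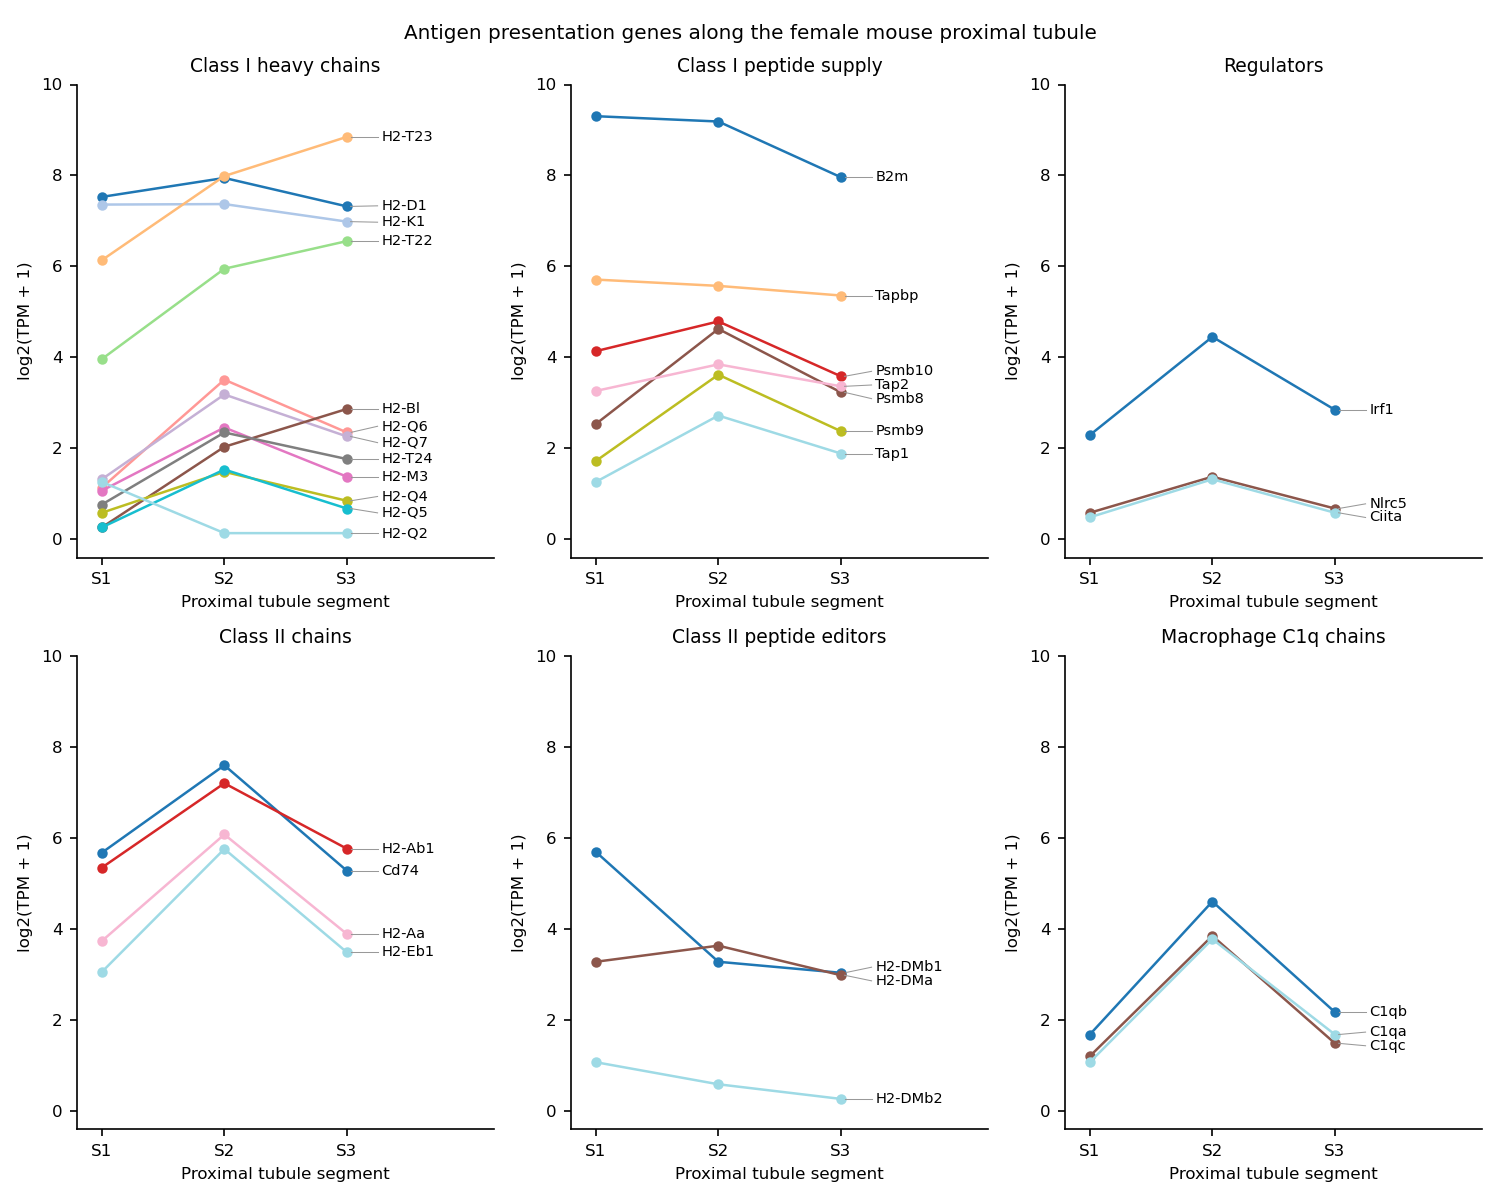
Level of each gene in S1, S2 and S3 as log2(TPM + 1), in 6 panels by role, with 1 point per gene and segment and lines joining the points of a gene. The class II chains and C1q chains peak in S2, H2-T23 and H2-T22 climb towards S3, and H2-DMb1 is highest in S1. H2-Ke6, H2-K2 and the genes below 1 TPM are not drawn.

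The classical class I heavy chains, which present peptides to CD8 T cells, differed less than 2-fold between any segments. H2-K1 was at 163 TPM in S1, 165 TPM in S2 and 126 TPM in S3. H2-D1 was at 184, 246 and 159 TPM. Both were abundant in every segment, and their largest difference was 0.63 on the log2 scale, for H2-D1 in S2 minus S3. Together the pair summed to 347, 410 and 285 TPM. The coding sequences of class I heavy chains are alike, and the labels do not say how shared reads were divided, so the split between H2-K1, H2-D1 and the nonclassical genes is uncertain.

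Nonclassical class I genes behaved differently. H2-T23 encodes Qa-1, which shows leader peptides of other class I chains to receptors of natural killer cells. It was at 69.4 TPM in S1, 253 TPM in S2 and 460 TPM in S3. It was thus 3.64-fold higher in S2, and 6.63-fold higher in S3, than in S1. H2-T22, whose product is a ligand of gamma delta T cells, was at 14.6, 60.8 and 93.2 TPM, which is 4.16-fold below S2 and 6.38-fold below S3 for S1. H2-Bl, which RefSeq lists as a transcribed pseudogene, was at 0.2, 3.1 and 6.3 TPM. The differences of these 3 genes for S2 minus S3 were -0.86, -0.61 and -0.83, each short of 2-fold on the deposited scale. With median-of-ratios scaling over genes above 0 they were -1.38, -1.12 and -1.23, past it. In S3 H2-T23 was the most abundant heavy chain, above H2-D1 and H2-K1, while in S1 it was below both.

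H2-T23, H2-T22 and H2-Bl lie in 1 stretch of chromosome 17, from 36029977 to 36084249 (GRCm38.p6). They were put together after their values were seen. Their sum was 84.2 TPM in S1, 317 TPM in S2 and 560 TPM in S3. As a share of all class I heavy chain TPM it was 19.2%, 41.7% and 65.2%, and that of H2-K1 with H2-D1 was 79.0%, 54.0% and 33.1%. H2-T24, which lies beside them, did not follow this order, with 0.7, 4.1 and 2.4 TPM. RefSeq places A930015D03Rik across H2-T23, H2-T22 and H2-T24. The kit marks no strand, so reads of overlapping genes cannot be told apart, and that gene was at 0.5, 1.7 and 1.4 TPM.

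The remaining nonclassical genes were low and mostly highest in S2. H2-Q6 and H2-Q7 encode Qa-2 and are near-identical, so the split between them is uncertain. H2-Q6 was at 1.2, 10.4 and 4.1 TPM and H2-Q7 at 1.5, 8.1 and 3.8 TPM. H2-M3, which presents formylated bacterial peptides, was at 1.1, 4.5 and 1.6 TPM. H2-Q5, a transcribed pseudogene in RefSeq, was at 0.2, 1.9 and 0.6 TPM and H2-Q4 at 0.5, 1.8 and 0.8 TPM. H2-Q2 was the exception, at 1.4 TPM in S1 and 0.1 in S2 and S3. Of the 26 nonclassical genes 10 were compared. H2-Q2 was compared through S1 alone, and H2-Q4 and H2-Q5 through S2 alone. S1 was above S2 for 1 of the 10 (beside 6.62% of all genes) and below it for 8 (beside 17.7%). The median difference was -1.68, beside -0.18 over all genes. S1 was above S3 for 1 (beside 10.5%) and below it for 5 (beside 13.1%), with a median of -0.97. Of these 5, H2-T24 lay on the 2-fold limit and was short of it with pseudocount 5 (-0.38), quantile normalization (-0.82) and median-of-ratios scaling over genes above 0 (-0.95). H2-Q6 was short of it with pseudocount 5 (-0.55). S2 was above S3 for 2 (H2-M3 and H2-Q6, beside 8.74% of all genes) and below it for none (beside 2.24%). The median was 0.61, and -0.61 with a filter of 5 TPM. Under the median-of-ratios scaling over genes above 0, S2 minus S3 was 0.69 for H2-M3 and 0.71 for H2-Q6. For S1 minus S2 under that scaling H2-M3 was at -0.90 and H2-Q5 at -0.97.

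The promoters of the flat pair and of the rising pair are shown because these genes lie in 1 complex yet differed in pattern along the tubule. They are RefSeq windows of GRCm38.p6 from 250 bases before a start to the first 50 bases from it, 5′ to 3′ on the gene's own strand. For H2-K1 the whole window lies inside the gene's RefSeq interval (33996012 to 34000619), so its start is an internal one. For the other windows shown, here and below, it is the gene's own start. Capitals mark matches on either strand to 4 motifs. These are CCAAT, the core of the Y box (ATTGG on the other strand), TGACG, the core of the X2 box (CGTCA on the other strand), GAAANNGAA, an interferon response core, and GGGNNTTCC, an NF-kappaB-like motif. The windows follow.
H2-K1, chr17:34000298-34000597, minus strand: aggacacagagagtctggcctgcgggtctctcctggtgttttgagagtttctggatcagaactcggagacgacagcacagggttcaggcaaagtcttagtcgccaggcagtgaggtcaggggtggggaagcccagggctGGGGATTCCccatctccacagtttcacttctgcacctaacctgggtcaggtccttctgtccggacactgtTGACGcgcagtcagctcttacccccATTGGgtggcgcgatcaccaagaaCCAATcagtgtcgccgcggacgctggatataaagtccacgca
H2-D1, chr17:35262844-35263143, plus strand: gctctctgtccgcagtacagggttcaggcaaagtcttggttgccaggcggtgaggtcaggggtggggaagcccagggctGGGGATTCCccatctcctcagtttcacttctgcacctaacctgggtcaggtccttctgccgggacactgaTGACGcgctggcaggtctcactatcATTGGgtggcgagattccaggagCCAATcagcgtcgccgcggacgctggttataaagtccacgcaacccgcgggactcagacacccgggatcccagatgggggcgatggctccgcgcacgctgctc
H2-T23, chr17:36032652-36032951, minus strand: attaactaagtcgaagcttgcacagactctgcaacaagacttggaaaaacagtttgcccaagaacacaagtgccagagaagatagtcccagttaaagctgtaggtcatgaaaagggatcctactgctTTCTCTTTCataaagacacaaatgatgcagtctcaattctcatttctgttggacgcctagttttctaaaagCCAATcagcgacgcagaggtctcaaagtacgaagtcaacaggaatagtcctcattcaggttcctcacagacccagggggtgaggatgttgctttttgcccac
H2-T22, chr17:36042693-36042992, minus strand: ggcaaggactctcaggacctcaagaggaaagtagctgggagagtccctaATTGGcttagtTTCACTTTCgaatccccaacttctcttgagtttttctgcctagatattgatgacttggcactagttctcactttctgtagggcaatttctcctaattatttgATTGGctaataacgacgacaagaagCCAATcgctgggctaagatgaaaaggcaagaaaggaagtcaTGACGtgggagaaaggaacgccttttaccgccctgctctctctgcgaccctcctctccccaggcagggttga

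H2-K1, of whose 2 windows the first is shown, and H2-D1 held the same order of motifs. The NF-kappaB-like motif began at -111 in H2-K1 and -171 in H2-D1, counting the start used for each window as 0. TGACG lay at -41 and -101, with a pair of CCAAT cores on opposite strands behind it. H2-T23 and H2-T22 had no match to GGGNNTTCC in these windows and each had a match to GAAANNGAA, from -123 and -190. H2-T22 also held TGACG at -22 and H2-T23 held none. Both H2-K1 and H2-D1 hold cagtttcacttctgc behind their NF-kappaB-like motif, a run that the exact GAAANNGAA does not match. The search thus does not show that H2-K1 and H2-D1 lack an interferon response element. Of the 34 genes compared, 24 had a window. CCAAT was in 20 of them and in 37.4% of all 32851 windows of the table, TGACG in 11 and in 20.8%, GAAANNGAA in 3 (B2m, H2-T23 and H2-T22) and in 8.56%, and GGGNNTTCC in 6 and in 5.82%. A match is a run of letters and says nothing of whether a factor binds there, and variants of an element are missed.

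Peptide supply to class I held genes that were level, genes that were highest in S2 and B2m, which was low in S3. B2m, the light chain of all class I molecules, was at 631 TPM in S1, 582 TPM in S2 and 248 TPM in S3. S3 was the low segment, with S1 2.54-fold and S2 2.34-fold above it. With median-of-ratios scaling over genes above 0 the difference of S2 minus S3 for B2m was 0.71 in place of 1.23, under 2-fold. Per TPM of class I heavy chain, summed over classical and nonclassical genes, B2m was at 1.44 in S1, 0.765 in S2 and 0.289 in S3. Tapbp, which encodes tapasin and holds heavy chains at the peptide transporter, was level at 51.4, 46.6 and 40.1 TPM. Tap2 was at 8.6, 13.4 and 9.3 TPM and Tap1, its partner in the transporter, at 1.4, 5.6 and 2.7 TPM. Tap1 was thus lower in S1 than in S2 by over 2-fold (difference -1.46), and Tap2 differed by less. With the same scaling the difference of Tap1 was -0.94.

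The immunoproteasome subunits replace the constitutive catalytic subunits under interferon and favour peptides that fit class I. Psmb8 was at 4.8 TPM in S1, 23.7 TPM in S2 and 8.4 TPM in S3. Psmb9 was at 2.3, 11.3 and 4.2 TPM. Both were lower in S1 than in S2, 4.94-fold for Psmb8 and 4.91-fold for Psmb9. Psmb10 was at 16.6, 26.7 and 11.0 TPM and differed 2-fold between S2 and S3 alone. With median-of-ratios scaling over genes above 0 the differences of S2 minus S3 fell short of 2-fold, at 0.91 for Psmb8, 0.78 for Psmb9 and 0.71 for Psmb10. The constitutive partners were far more abundant and level. Psmb5 was at 267, 254 and 346 TPM, Psmb6 at 465, 433 and 476 TPM, and Psmb7 at 129, 122 and 153 TPM. As a share of each pair, Psmb8 made up 1.77% in S1, 8.53% in S2 and 2.37% in S3 of its sum with Psmb5. Psmb9 made up 0.492%, 2.54% and 0.875% of its sum with Psmb6, and Psmb10 made up 11.4%, 18.0% and 6.70% of its sum with Psmb7. Over all catalytic subunits the immunoproteasome share was 2.68%, 7.08% and 2.36%.

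**Figure D2:**
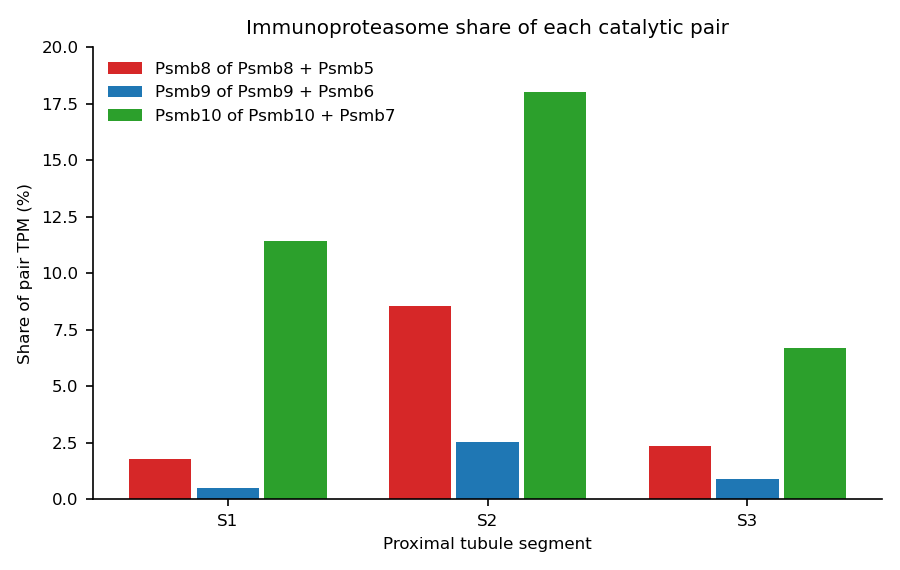
Share of TPM, in percent, that each immunoproteasome subunit takes of its sum with the constitutive subunit it replaces, in S1, S2 and S3, with 1 bar per pair and segment and no error since each is 1 value. All 3 shares are highest in S2, at 8.53% for Psmb8, 2.54% for Psmb9 and 18.0% for Psmb10.

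Psmb9 and Tap1 are divergent neighbours whose starts lie 226 bases apart, so that 275 bases of their promoter windows are the same DNA. The window of Tap1 is shown with the motifs in capitals as above.
Tap1, chr17:34187306-34187605, plus strand: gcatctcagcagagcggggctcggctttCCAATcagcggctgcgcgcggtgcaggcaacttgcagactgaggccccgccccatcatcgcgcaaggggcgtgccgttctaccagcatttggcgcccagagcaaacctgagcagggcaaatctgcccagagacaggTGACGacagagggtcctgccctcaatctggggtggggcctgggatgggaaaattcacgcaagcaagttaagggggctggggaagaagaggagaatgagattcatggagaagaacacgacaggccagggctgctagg

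It holds CCAAT at -222 and TGACG at -86 and no match to the other motifs. On the sides of this shared stretch the difference of S1 minus S2 was -1.46 for Tap1 and -1.90 for Psmb9.

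None of the 8 other peptide-loading genes listed (chaperones, trimming enzyme and proteasome activators) differed 2-fold between any segments. Calr, the chaperone calreticulin, was at 445, 403 and 405 TPM. Pdia3, a disulfide isomerase of the loading complex, was at 384, 273 and 271 TPM and Canx, calnexin, at 183, 130 and 120 TPM. Over all 8 the median difference was 0.31 (S1 minus S2), 0.36 (S1 minus S3) and 0.07 (S2 minus S3).

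The regulators were low and highest in S2. For Nlrc5 and Ciita, which reached 1 TPM in S2 alone, the limit for comparison fixed this in advance. Irf1, a transcription factor induced by interferon that acts on class I genes, was at 3.9 TPM in S1, 20.9 TPM in S2 and 6.2 TPM in S3, 5.36-fold lower in S1 than in S2. Nlrc5, the transactivator of class I, was at 0.5, 1.6 and 0.6 TPM, and Ciita, the transactivator of class II, at 0.4, 1.5 and 0.5 TPM. At such levels, rounded to 1 decimal, the size of a fold is poorly fixed. RefSeq places Dexi, which was at 10.8, 10.2 and 10.2 TPM, across the Ciita interval. The partners that bind class I and class II promoters with them, listed as 7 genes (the RFX and NF-Y subunits and Creb1), did not differ 2-fold. Among them Rfxap was at 34.7, 28.7 and 27.2 TPM, Nfyc at 27.6, 27.8 and 30.2 TPM and Nfyb at 10.2, 12.3 and 13.3 TPM.

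Of 28 interferon signalling and response genes listed, 27 were compared. S1 was above S2 for 1 (beside 6.62% of all genes) and below it for 12 (beside 17.7%). The median was -0.76, beside -0.18 over all genes. S1 was above S3 for 4 (beside 10.5%) and below it for 5 (beside 13.1%), with a median of 0.00. S2 was above S3 for 9 (beside 8.74%) and below it for none (beside 2.24%), with a median of 0.70. Ifitm3, a membrane protein that blocks virus entry, was at 30.4, 227 and 81.1 TPM. Ifi27 was the one gene higher in S1 than in S2, at 257, 31.4 and 19.0 TPM. Irf3, a transcription factor of the type I interferon response, was at 56.6, 102 and 117 TPM. The list thus held genes that peaked in each segment.

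The class II chains were highest in S2, each at least 2-fold above S1 and above S3. Cd74, the invariant chain that guides class II to endosomes, was at 50.1 TPM in S1, 193 TPM in S2 and 37.8 TPM in S3. H2-Ab1, the beta chain of I-A, was at 39.7, 146 and 53.3 TPM, and H2-Aa, its alpha chain, at 12.3, 66.5 and 13.8 TPM. H2-Eb1 was at 7.3, 53.1 and 10.2 TPM. C57BL/6 mice make the E beta chain but no functional E alpha chain. The gap between S1 and S2 ran from 3.69-fold for H2-Ab1 and 3.85-fold for Cd74 to 5.41-fold for H2-Aa and 7.27-fold for H2-Eb1. S1 and S3 differed less than 2-fold in all 4. With median-of-ratios scaling over genes above 0, H2-Ab1 in S2 minus S3 was 0.93 in place of 1.44. H2-Eb2 was at 0.1 TPM in S2 and listed at 0 in S1 and S3. The median difference of the 4 genes was -2.13 (S1 minus S2), -0.29 (S1 minus S3) and 2.23 (S2 minus S3).

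The promoters of a pair of class II chains and of H2-DMb1 are given with the same motifs in capitals, since H2-DMb1 departed from the other class II genes.
H2-Aa, chr17:34287774-34288073, minus strand: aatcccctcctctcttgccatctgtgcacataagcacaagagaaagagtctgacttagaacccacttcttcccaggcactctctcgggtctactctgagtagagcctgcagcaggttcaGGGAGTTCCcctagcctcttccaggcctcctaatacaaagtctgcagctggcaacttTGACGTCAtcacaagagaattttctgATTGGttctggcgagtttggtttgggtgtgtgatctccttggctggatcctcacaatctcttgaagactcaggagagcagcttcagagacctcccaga
H2-Eb1, chr17:34305617-34305916, plus strand: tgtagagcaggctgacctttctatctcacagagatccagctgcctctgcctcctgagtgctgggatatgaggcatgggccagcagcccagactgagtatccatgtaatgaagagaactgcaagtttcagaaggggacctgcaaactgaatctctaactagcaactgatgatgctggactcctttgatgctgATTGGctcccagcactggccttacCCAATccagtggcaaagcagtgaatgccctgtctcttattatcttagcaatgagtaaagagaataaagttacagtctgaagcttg
H2-DMb1, chr17:34152941-34153240, plus strand: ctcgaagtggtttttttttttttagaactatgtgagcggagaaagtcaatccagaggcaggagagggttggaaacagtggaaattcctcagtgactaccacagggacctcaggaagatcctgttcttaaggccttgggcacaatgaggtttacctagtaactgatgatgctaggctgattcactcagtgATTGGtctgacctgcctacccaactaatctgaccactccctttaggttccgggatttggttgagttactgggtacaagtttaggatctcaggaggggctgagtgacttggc

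All 3 held a CCAAT core on the opposite strand, from -48 in H2-Aa, -59 in H2-Eb1 and -61 in H2-DMb1. H2-Aa had TGACG on both strands, overlapping from -74 and -71, and the NF-kappaB-like motif from -131. H2-Eb1 had a further CCAAT at -35, and H2-DMb1 no other match. Both H2-Eb1 and H2-DMb1 hold aactgatgatgct ahead of their ATTGG, a run that the exact TGACG does not match. The search thus does not show that they lack an X2 box.

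Of the peptide editors compared, only H2-DMb1 differed 2-fold between segments, and it was highest in S1. H2-DMb2 was also highest in S1, and H2-DMa, H2-Oa and H2-Ob in S2. H2-DMb2, H2-Oa and H2-Ob were at 1.1 TPM or less, so their order is poorly fixed. H2-DM, a dimer of an alpha chain and a beta chain, exchanges the invariant-chain fragment for antigen peptides. H2-DMb1, its beta chain, was at 50.8 TPM in S1, 8.7 TPM in S2 and 7.2 TPM in S3. S1 exceeded S2 5.84-fold and S3 7.06-fold. H2-DMa, the alpha chain, was at 8.7, 11.4 and 6.9 TPM, differing less than 2-fold. The ratio of H2-DMb1 to H2-DMa was thus 5.84 in S1, 0.763 in S2 and 1.04 in S3. That of H2-DMb1 to H2-Ab1 was 1.28, 0.0595 and 0.135. H2-DMb2, a near-identical copy whose reads cannot be parted from H2-DMb1 with certainty, was at 1.1, 0.5 and 0.2 TPM. RefSeq places no other gene across H2-DMb1 (chromosome 17, 34153191 to 34160229, GRCm38.p6), and it places Brd2, at 38.2, 46.6 and 45.4 TPM, across part of the H2-DMa interval. H2-Ob, a chain of the inhibitor of H2-DM, was at 0.1, 0.6 and 0.1 TPM, and H2-Oa, its other chain, at 0.2 TPM in S2 and listed at 0 in S1 and S3.

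Of 6 class II processing enzymes, 4 (Ctsl, Ctsb, Ctsd and Lgmn) were 2-fold or more above both other segments in S1, beside 6.03% of all genes. Ctss was lower in S1 than in S2. Lgmn and Ctss are named after their values were seen. Ctsl, a lysosomal protease that trims the invariant chain in thymic epithelium, was at 1566, 509 and 421 TPM. Ctsb was at 1322, 318 and 275 TPM and Ctsd at 794, 322 and 328 TPM. These lysosomal enzymes serve protein breakdown in all cells. Ctss, which trims the invariant chain in macrophages, dendritic cells and B cells, went the other way with 0.7, 8.9 and 1.3 TPM.

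**Figure D3:**
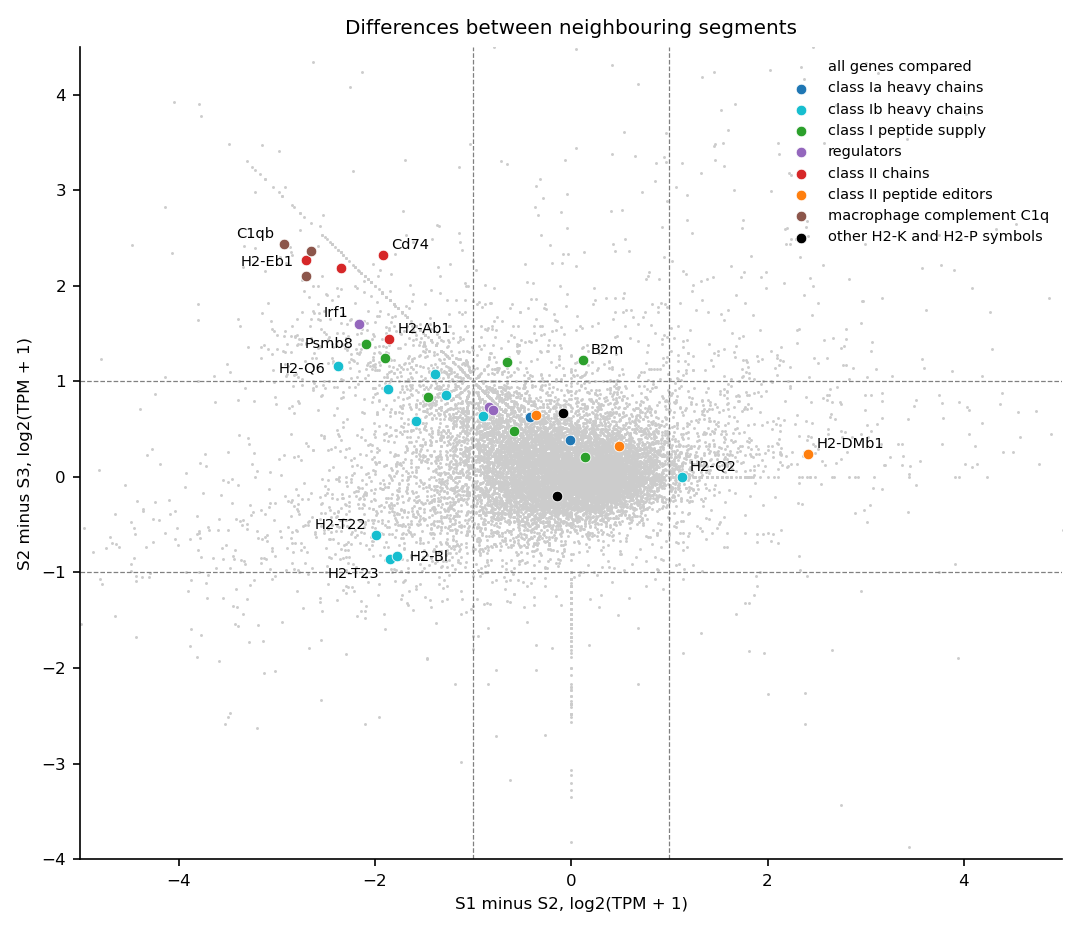
Difference of each gene between S1 and S2 (horizontal axis) and between S2 and S3 (vertical axis), both in log2(TPM + 1), with all genes compared in grey, the 34 genes in colour by role and dashed lines at 2-fold. Class II and C1q chains lie at the upper left (highest in S2), H2-T23, H2-T22 and H2-Bl at the lower left and H2-DMb1 at the right. The axes leave out 133 genes, none of them coloured.

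The C1q chains were each at least 2-fold higher in S2 than in S1 and S3, with S1 values of only 1.1 to 2.2 TPM. C1qb was at 2.2 TPM in S1, 23.3 TPM in S2 and 3.5 TPM in S3. C1qc was at 1.3, 13.4 and 1.8 TPM and C1qa at 1.1, 12.7 and 2.2 TPM. S1 was below S2 by 10.6-fold for C1qb, 10.3-fold for C1qc and 11.5-fold for C1qa, and S2 was above S3 by 6.66-fold, 7.44-fold and 5.77-fold. The 3 genes lie together on chromosome 4 and kept a similar proportion, with 2.00, 1.83 and 1.59 TPM of C1qb per TPM of C1qa in S1, S2 and S3.

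Markers of macrophages and monocytes moved the same way. Of the 18 listed, 14 were compared. For 11 of these S1 was below S2 (beside 17.7% of all genes) and for 9 S2 was above S3 (beside 8.74%). None went in the opposite direction. Several of the 14 reached 1 TPM in S2 alone, so they were compared only because S2 was high. Ctss belongs to this list too. Tyrobp, a signalling adaptor of myeloid cells, was at 0.8, 17.1 and 2.4 TPM, and Fcer1g, its relative, at 0.9, 12.8 and 1.6 TPM. Csf1r, the receptor that keeps macrophages alive, departed from the rest with 0.5, 32.0 and 46.9 TPM. Without Csf1r, a choice made after its values were seen, the markers summed to 11.5 TPM in S1, 81.7 TPM in S2 and 18.8 TPM in S3, and with it to 12.0, 114 and 65.7 TPM. Fcgr1 was listed at 0 in S1 and Mrc1 in S3. Among 5 pan-leukocyte markers, all were lower in S1 than in S2 by 2-fold or more, beside 17.7% of all genes. Some of them, Ptprc included, reached 1 TPM in S2 alone and were compared only through S2. The 5 markers summed to 2.7, 18.5 and 4.3 TPM. Of these Ptprc, the CD45 antigen, was at 0.5, 2.5 and 0.4 TPM, Coro1a at 0.8, 6.1 and 1.0 TPM and Arhgdib at 1.0, 6.8 and 2.4 TPM.

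Markers of dendritic cells, B cells, T cells and natural killer cells were low. The 9 dendritic cell markers summed to 2.1, 8.6 and 2.5 TPM, most of it Zbtb46 (1.2, 5.2 and 1.6 TPM), with Batf3 at 0.2, 0.8 and 0.2 and Flt3 at 0.2, 0.6 and 0.2 TPM. Itgax was listed at 0 in S1 and S3. The 6 B cell markers summed to 0.6, 4.7 and 0.8 TPM, mostly from Ighm (0.2, 3.3 and 0.4 TPM), with Ms4a1 and Cd79b at most 0.4 TPM. Cd79a was listed at 0 in S1 and Cd79b in S3. The 9 markers of T and natural killer cells summed to 1.5, 4.6 and 1.3 TPM. Lck was at 0.6, 1.4 and 0.3 TPM, Cd3g at 0.3, 0.8 and 0.4 and Cd4 at 0.2, 0.8 and 0.1, while Cd3d and Cd8a were listed at 0 in S1 and S3 and Ncr1 in S1. Each of these lists was again highest in S2.

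Endothelial markers, from cells that carry class I and can carry class II, were the most abundant of the foreign markers. All 11 were at least 2-fold above both other segments in S2, beside 5.22% of all genes compared. Their sum was 78.0, 733 and 289 TPM. Plvap was at 29.6, 275 and 136 TPM, Emcn at 14.1, 156 and 51.3 TPM and Egfl7 at 13.6, 100.4 and 38.0 TPM. The 10 stromal and mural markers summed to 2.9, 23.5 and 2.6 TPM, with Dcn at 0.6, 5.1 and 0.6, Col3a1 at 0.5, 5.1 and 0.3 and Col1a2 at 0.4, 3.5 and 0.3 TPM. Lum was listed at 0 in S1 and S3. The 10 markers of other tubules and the glomerulus summed to 3.4, 39.1 and 37.0 TPM. Umod, made by the thick ascending limb, was at 0.2, 21.1 and 29.1 TPM, Podxl at 1.4, 13.4 and 3.1 and Slc12a3 at 0.7, 2.0 and 3.0 TPM. Slc4a1 was listed at 0 in S1 and S3. What part these cells have in the class II, C1q, immunoproteasome and Irf1 values was not tested.

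**Figure D4:**
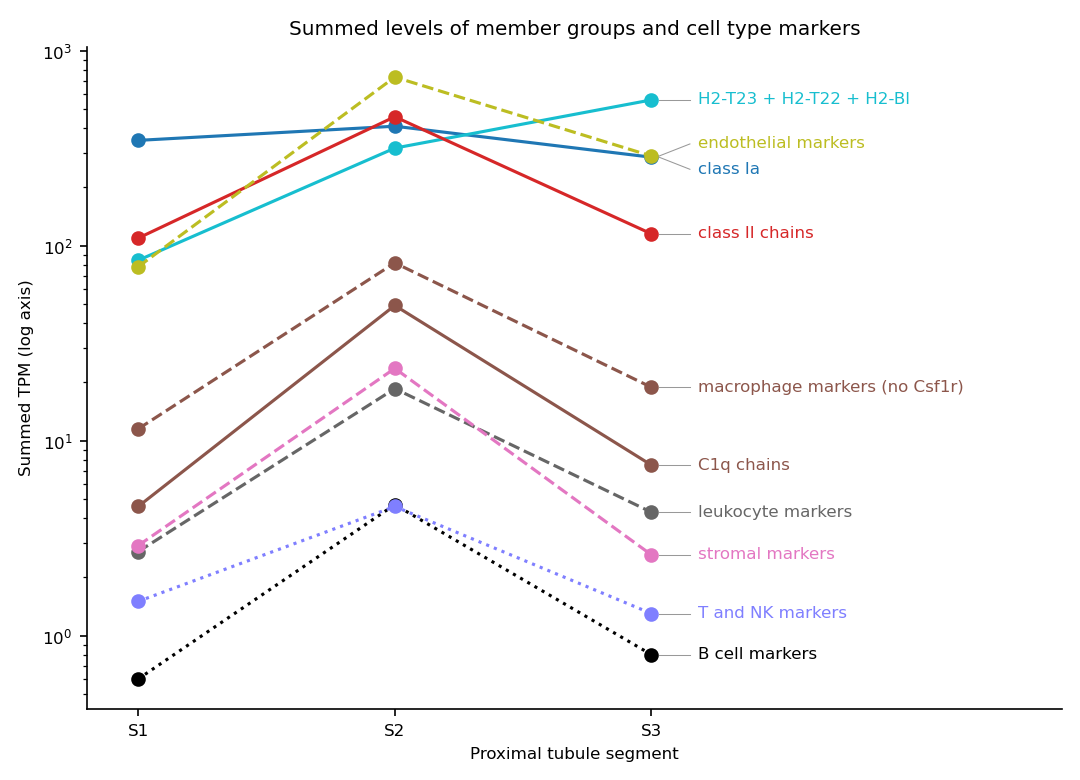
Summed TPM (log axis) in S1, S2 and S3 for groups of antigen presentation genes (solid lines) and for lists of cell type markers (dashed and dotted lines), with 1 point per group and segment. Class II chains, C1q chains and every marker list drawn are highest in S2, while H2-T23 with H2-T22 and H2-Bl is highest in S3 and the classical class I pair is nearly level.

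The proportion of class II to C1q and to the macrophage and pan-leukocyte markers was highest in S1. Between S2 and S3 it was close for the pan-leukocyte list and, with Csf1r left out, for the macrophage list. It differed for C1q. With Csf1r the macrophage markers summed to 114 TPM in S2 and 65.7 TPM in S3, so for the full list it was not close. The class II chains summed to 109 TPM in S1, 459 TPM in S2 and 115 TPM in S3. Per TPM of C1q that was 23.8 in S1, 9.29 in S2 and 15.3 in S3. Per TPM of macrophage markers without Csf1r it was 9.51, 5.61 and 6.12, and per TPM of pan-leukocyte markers 40.5, 24.8 and 26.8. Per TPM of endothelial markers it was 1.40, 0.626 and 0.399. The sums in S1 and S3 rest on marker values of a few TPM or less, given to 1 decimal, so these ratios are rough there. Within class II, Cd74 stood at 1.26, 1.32 and 0.709 TPM per TPM of H2-Ab1, and H2-Aa at 0.310, 0.455 and 0.259.

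Complement genes other than C1q followed other patterns. Of 12 listed, 11 were compared. S1 was above S2 for 4 (beside 6.62% of all genes) and below it for 3 (beside 17.7%). It was above S3 for 6 (beside 10.5%) and below it for 1 (beside 13.1%). S2 was above S3 for 5 (beside 8.74%) and below it for none (beside 2.24%). Cfb, factor B of the alternative pathway, which also lies in the histocompatibility complex, was at 367, 216 and 94.1 TPM. C2, its neighbour and counterpart in the classical pathway, was at 42.5, 23.8 and 10.3 TPM. Cd59a, an inhibitor of the final complex, was at 37.1, 17.2 and 25.2 TPM.

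Some H2 symbols are not histocompatibility genes or gave almost no signal. H2-Ke6 encodes a hydroxysteroid dehydrogenase (Hsd17b8) named for its place beside H2-K and was level at 186, 206 and 236 TPM. H2-K2, a transcribed pseudogene, was at 2.3, 2.5 and 1.2 TPM. The 21 genes under 1 TPM in every segment were H2-Eb2, H2-Oa, H2-Ob, H2-Pa, H2-Pb and 16 nonclassical class I genes. These 16 include H2-Q10, a secreted class I chain of liver, at 0.6, 0.4 and 0.2 TPM and H2-T3, the thymus leukemia antigen, at 0.2, 0.3 and 0.1 TPM. H2-M1, H2-M11, H2-M10.3, H2-M10.4, H2-M10.5 and H2-M10.6 were the 6 listed at 0 in all 3 segments. Genes of the H2-M10 family are known from vomeronasal neurons.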

How the data were processed

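RNA-seq was made from kidney tubules with the SMARTer V4 kit (10 to 12 PCR cycles) and Nextera XT and read as 50-base pairs, per the labels' protocols, with no molecular identifiers and no strand marking named. The authors deposited TPM per gene and segment, rounded to 1 decimal, in columns summing to 999907 for S1, 999988 for S2 and 999911 for S3. Per the submitters' processing notes the build was mm10 and STAR and RSEM were among the tools. How libraries were combined, and the annotation, are not given in the labels. The 3 columns of the labelled groups were used, and the other 5 value columns match no labelled group and were not used. The 24 ATAC-seq libraries were not analysed here.

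Genes with at least 1 TPM in at least 1 segment (16053) were compared as log2(TPM + 1), with 2-fold as the threshold and no test. Named are every gene of the set that reached 1 TPM and, from each list, the 3 genes of highest mean. Some marker genes that enter the list sums are not reported here by name. The genes and lists were chosen with earlier results of these data known. Alternatives were the pseudocount, the filter and the scaling. Proteins were not compared, for want of a sequence table here. All 55 IDs matched a reference table of symbols, and coordinates and promoters came from RefSeq for GRCm38.p6, with promoter windows for 40. The code was tested on simulated data (Python 3.11.15, pandas 2.3.3, NumPy 2.4.6, matplotlib 3.10.9).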

Additional observations from a re-analysis of the deposited data

How the results depend on the processing

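No paired analysis was possible because each segment has 1 deposited value per gene. The counts of genes past 2-fold and the medians by role were recomputed with each pseudocount, filter and scaling, and no median or ratio of sums that was past 2-fold changed sign. Of those under 2-fold, 6 medians did. With median-of-ratios scaling over genes above 0, S1 minus S2 was 0.5 in place of -0.21 for the classical class I genes and 0.03 in place of -0.65 for peptide supply, S1 minus S3 was 0.07 in place of -0.1 for peptide supply, and S2 minus S3 was -0.01 in place of 0.51 for the classical genes. S1 minus S2 of the peptide editors was -0.26 in place of 0.49 with no filter, and S2 minus S3 of the nonclassical genes was -0.61 in place of 0.61 with a filter of 5 TPM. Another 4 ratios of sums under 2-fold changed sign. Of 48 recomputed counts 40 stayed within 1.5 times. Genes higher in S1 than in S2 went from 2 to 1 with pseudocount 5 or a filter of 5 TPM. Genes lower in S1 than in S3 went from 5 to 3 with pseudocount 5. Genes higher in S2 than in S3 went from 14 to 22 with pseudocount 0.1 and to 7 with median-of-ratios scaling over genes above 0. Genes lower in S2 than in S3 went from 0 to 1 with pseudocount 0.1 or quantile normalization and to 3 with that scaling. Of 168 recomputed medians 150 kept their side of 2-fold. For the nonclassical class I genes, S1 minus S2 fell below 2-fold with pseudocount 5 (-0.66) and no filter (-0.24). Their S1 minus S3 passed it with pseudocount 0.1 (-1.46), a filter of 5 TPM (-2.59), median-of-ratios scaling over genes of at least 1 TPM (-1.01, an alternative chosen after seeing the data) and with Gpx3, Kap and the mitochondrially encoded genes left out (-1.06). For the regulators, S1 minus S2 passed it with pseudocount 0.1 (-1.68), a filter of 5 TPM (-2.16) and without those abundant genes (-1.0), and S2 minus S3 with pseudocount 0.1 (1.42) and the filter (1.6). For the peptide editors, S1 minus S2 passed it with pseudocount 0.1 (1.0) and the filter (1.03), and S1 minus S3 with pseudocount 0.1 (2.0), the filter (1.48) and quantile normalization (1.0). For peptide supply, S2 minus S3 fell below it with pseudocount 5 (0.83) and median-of-ratios scaling over genes above 0 (0.71). Of 84 recomputed log2 ratios of sums 82 kept their side, the exceptions being S2 over S3 under that scaling for the nonclassical genes (-1.23) and peptide supply (0.61). The cause was not tested, beyond the fewer genes that a stricter filter leaves. The deposited TPM keep no depth, so how far low values limit these results is unknown.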
